A study of Mus musculus with 56 samples.

Results

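The SLC25 family of membrane carriers was followed through the day in mouse heart. The carriers were chosen by name alone, as every gene whose symbol is Slc25a followed by a number, with Slc25a20 (the carnitine-acylcarnitine carrier) set aside. This gave 44 of the 22864 genes listed, and 37 of them reached a mean of 1 TPM (reads per base of exon, scaled to one fixed sum in each library) and entered the tests among 13869 genes. Female mice of the inbred strain C57BL/6J were given food by day only (daytime-restricted feeding, DRF) or by night only (nighttime-restricted feeding, NRF). NRF is the reference, since mice mostly eat at night, and no group fed ad libitum was analysed here. The mice were 9 weeks old, had 7 days of entrainment to 12 h of light and 12 h of darkness with free food, and then 7 days of their regimen. Hearts were collected every 4 h at 7 zeitgeber times (ZT, counted in hours since the lights came on) that run from ZT0 to ZT24. With 4 replicates per regimen and time there were 14 groups and 56 libraries of polyA RNA. The labels do not say that each replicate was a separate animal, so the p-values measure the spread between these libraries.

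SLC25 carriers sit mostly in the inner mitochondrial membrane, which is otherwise closed to charged metabolites, and each exchanges or imports a small set of solutes: ADP for ATP, phosphate, amino acids, carboxylates, coenzymes, nucleotides, iron or glutathione. In the heart, which lives on mitochondrial ATP, the ADP/ATP and phosphate carriers are among the most abundant membrane proteins. The symbol does not guarantee the place: Slc25a17 is known from peroxisomes and Slc25a46 from the outer mitochondrial membrane. In bulk tissue, fewer cells of a type and less RNA per cell cannot be told apart.

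Promoters are shown for 4 carriers, 2 pairs whose rhythms differed between regimens: Slc25a33 and Slc25a13, which both peaked near ZT12 under NRF, and Slc25a34 and Slc25a42, which both peaked late in the light phase under NRF and around lights on under DRF. Each is the 250 bases before the annotated start, 5′ to 3′ on the gene's strand, from the RefSeq table of GRCm38.p6, and capitals mark the E-box CACGTG, the 6-letter motif read by the clock factors CLOCK and BMAL1. The windows lie on the minus strand at chr4:149774268-149774517 for Slc25a33, at chr6:6217174-6217423 for Slc25a13, at chr4:141623835-141624084 for Slc25a34 and at chr8:70212282-70212531 for Slc25a42.
Slc25a33: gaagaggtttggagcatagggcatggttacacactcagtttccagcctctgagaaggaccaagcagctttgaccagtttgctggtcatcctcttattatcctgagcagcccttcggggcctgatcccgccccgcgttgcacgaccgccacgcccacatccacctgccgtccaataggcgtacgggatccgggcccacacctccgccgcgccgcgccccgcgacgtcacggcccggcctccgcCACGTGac
Slc25a13: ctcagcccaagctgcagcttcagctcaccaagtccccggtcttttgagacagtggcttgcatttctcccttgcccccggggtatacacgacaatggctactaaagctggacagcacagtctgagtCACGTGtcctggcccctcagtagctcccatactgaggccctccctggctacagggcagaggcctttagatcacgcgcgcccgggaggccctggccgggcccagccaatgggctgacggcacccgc
Slc25a34: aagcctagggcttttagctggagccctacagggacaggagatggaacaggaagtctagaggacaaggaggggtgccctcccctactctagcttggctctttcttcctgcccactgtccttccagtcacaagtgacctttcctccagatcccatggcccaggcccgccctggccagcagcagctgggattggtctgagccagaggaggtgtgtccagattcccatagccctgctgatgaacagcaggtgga
Slc25a42: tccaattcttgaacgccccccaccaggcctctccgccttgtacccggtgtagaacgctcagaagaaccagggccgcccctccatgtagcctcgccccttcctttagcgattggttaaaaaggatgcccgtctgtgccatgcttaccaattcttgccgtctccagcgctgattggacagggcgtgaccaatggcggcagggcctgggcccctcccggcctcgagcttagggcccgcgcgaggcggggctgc

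The E-box lay 8 bases before the start of Slc25a33 and 125 bases before that of Slc25a13, and the windows of Slc25a34 and Slc25a42 held none. Of the 34 carriers with a window in the table, 7 held the E-box (Slc25a1, Slc25a13, Slc25a14, Slc25a15, Slc25a31, Slc25a33 and Slc25a36), against 6.02% of all 32851 windows. The D-box TTATGNAA was found for 1 carrier, Slc25a21, against 3.07% of windows, and the cAMP-response element TGACGTCA for 2, Slc25a25 and Slc25a36, against 1.55%. The forkhead motif GTAAACA was in 0 carrier windows and in 3.17% of all. Both strands were searched, and no motif contained another. A carrier was counted once if any of its windows held the motif, while the shares are of single windows. The counts and the shares are therefore not in the same unit. A match describes these letters only.

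Depth ranged from 29527844 assigned reads (DRF ZT0 replicate 1) to 53421005 (DRF ZT16 replicate 1) per library. Over 1087 genes outside the family whose rhythm differed between regimens at an adjusted p under 0.001, 47 of 56 libraries correlated best with the mean of the other libraries of their own group. In 7 of the remaining 9 the best match exceeded the own group by at most 0.074 in r. The other 2 went against their labels. The library labelled DRF ZT4 replicate 1 had r = -0.214 with its own group and 0.823 with NRF ZT8, and the library labelled NRF ZT8 replicate 1 had r = -0.155 with its own group and 0.722 with DRF ZT4. Both were kept under their labels, since the labels alone define the groups, and results are also given without these 2 libraries.

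The carriers spanned levels from 2.28 to 4531 TPM among the 37 tested, with a median of 15.8 TPM. Slc25a4, the main ADP/ATP carrier of heart and muscle, averaged 4531 TPM. Slc25a3, the phosphate and copper carrier, averaged 625 TPM, Slc25a11, the oxoglutarate-malate carrier, 482 TPM, and Slc25a5, the second ADP/ATP carrier, 369 TPM. Slc25a34, a poorly characterized carrier related to the oxaloacetate carriers of yeast, was the fifth at 171 TPM. Together Slc25a4 and Slc25a3 made up 75.3% of the summed carrier TPM, which ranged from 6090 to 7690 TPM (median 6760) over the 28 NRF libraries and from 6130 to 7570 TPM (median 7040) over the 28 DRF libraries. Just above the filter lay Slc25a14 (2.28 TPM), Slc25a27 (2.44 TPM) and Slc25a40 (2.62 TPM). The 7 carriers below it were Slc25a53 (0.681 TPM), Slc25a43 (0.418), Slc25a31 (0.287), Slc25a18 (0.238), Slc25a2 (0.165), Slc25a21 (0.0619) and Slc25a48 (0.0443). They include isoforms known from other tissues, such as Slc25a31, the ADP/ATP carrier of testis.

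A 24 h cosine was fitted to log2(TPM + 1) in each regimen with limma across all genes tested. Its amplitude is the log2 distance from the daily mean to the fitted peak, and a rhythm was called at an adjusted p under 0.05 (Benjamini-Hochberg over all genes tested). Errors after amplitudes, peak times, shifts and log2 differences are SE. Under NRF 21 of 37 carriers were rhythmic, against 37.3% of all genes. Under DRF 16 were rhythmic, against 32.4%, and 14 were rhythmic under both, against 17.7%. The NRF count was 12 without replicate 3 (22.9% of all genes), 13 without replicate 2 (20.5%) and 13 by a test for any shape of time course (26.1%). The DRF count was 10 without replicate 1 (16.6%) and 9 without ZT16 (18.6%). Median amplitudes were 0.117 under NRF and 0.10 under DRF for the carriers, and 0.103 and 0.10 for all genes. The rhythm itself, amplitude and peak time in 1 test, differed between regimens for 17 carriers, against 27.7% of all genes. Among them were Slc25a5, Slc25a13, Slc25a14, Slc25a16, Slc25a22, Slc25a23, Slc25a27, Slc25a29, Slc25a33, Slc25a34, Slc25a35, Slc25a38, Slc25a42, Slc25a44, Slc25a47 and Slc25a51. A rhythm turned by exactly 12 h with its amplitude kept was rejected for 14 carriers, against 41.5% of all genes. The gap between the carriers' share and that of all genes has no test here.

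Without the 2 libraries the rhythmic carriers numbered 21 under NRF and 15 under DRF (Slc25a14 was lost), against 43.0% and 30.0% of all genes. The rhythm then differed for 19 carriers, against 30.6% of all genes, of which 16 were called both ways: Slc25a15, Slc25a40 and Slc25a46 were gained and Slc25a23 was lost. The 12 h turn was then rejected for 16 carriers, with Slc25a24 and Slc25a32 added, against 43.6% of all genes. The adjusted p of the rhythm difference was then 0.000103 for Slc25a14, 0.00175 for Slc25a16, 2.1e-05 for Slc25a22, 0.0135 for Slc25a27, 0.000577 for Slc25a35, 3.37e-06 for Slc25a38, 0.00406 for Slc25a44 and 2.37e-05 for Slc25a51.

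**Figure D1:**
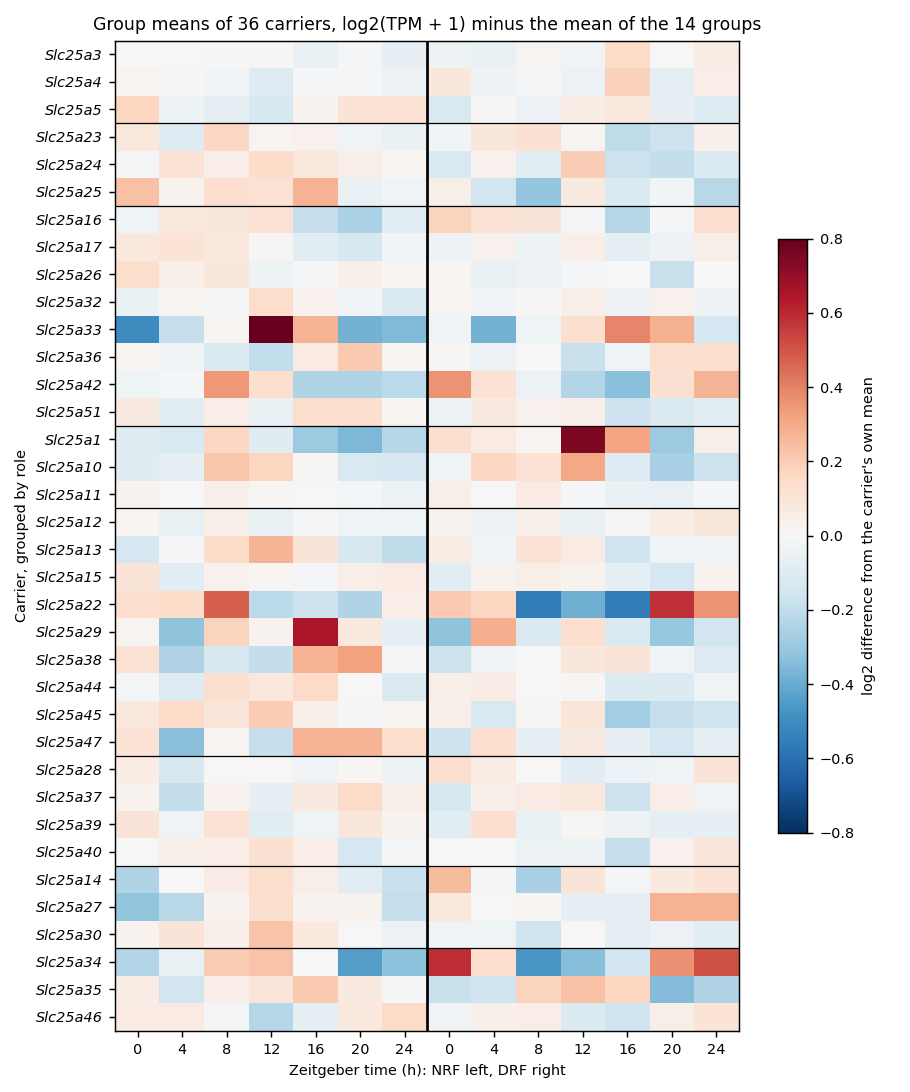
Time course of 36 of the 37 tested carriers in heart: one row per carrier, grouped by role, and one column per ZT (hours), NRF on the left and DRF on the right. Colour is the mean log2(TPM + 1) of 4 libraries minus the carrier's own mean over both regimens. Slc25a33 was highest at NRF ZT12 (33.0 TPM) and Slc25a34 at DRF ZT0 (251 TPM), while the rows of Slc25a4, Slc25a3 and Slc25a11 stay pale.

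The carriers of ADP, ATP and phosphate, which supply the ATP synthase and export its product, had fitted amplitudes of at most 0.135 in either regimen. Slc25a4 had group means from 4205 TPM (NRF ZT12) to 4587 TPM (NRF ZT0) under NRF and from 4290 TPM (DRF ZT20) to 5134 TPM (DRF ZT16) under DRF, and neither rhythm passed the test (adjusted p = 0.632 and 0.59). Its counts reached 285034 reads, above the 200000 up to which recovered reads were checked for being whole. At ZT16 the 4 DRF libraries held 5097, 5224, 4984 and 5231 TPM of Slc25a4 and the 4 NRF libraries 4322, 4358, 4578 and 4697 TPM. The groups did not overlap there, but the difference was not called at that ZT. Slc25a3 was 694.8 ± 31.8 TPM (SD, n = 4) in DRF and 602.8 ± 19.4 TPM in NRF at ZT16, the one ZT at which it was called (log2 difference 0.20 ± 0.06 SE, adjusted p = 0.023, limma). Slc25a5 was rhythmic under NRF with an amplitude of 0.14 ± 0.03 (SE) and a peak at 21.8 h (adjusted p = 0.00599) and not called under DRF (0.08 ± 0.03, adjusted p = 0.102). Its rhythm differed (adjusted p = 0.00168, and 0.000913 without the 2 libraries), and at ZT0 it was lower under DRF by a log2 difference of -0.29 ± 0.09 (adjusted p = 0.0254). Slc25a11 and Slc25a12, which with Slc25a13 carry the malate-aspartate shuttle, had amplitudes of at most 0.054 in either regimen. How reads shared with near-identical processed copies were counted is not given in the sources used here, so the level of Slc25a5 is uncertain in that respect.

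**Figure D2:**
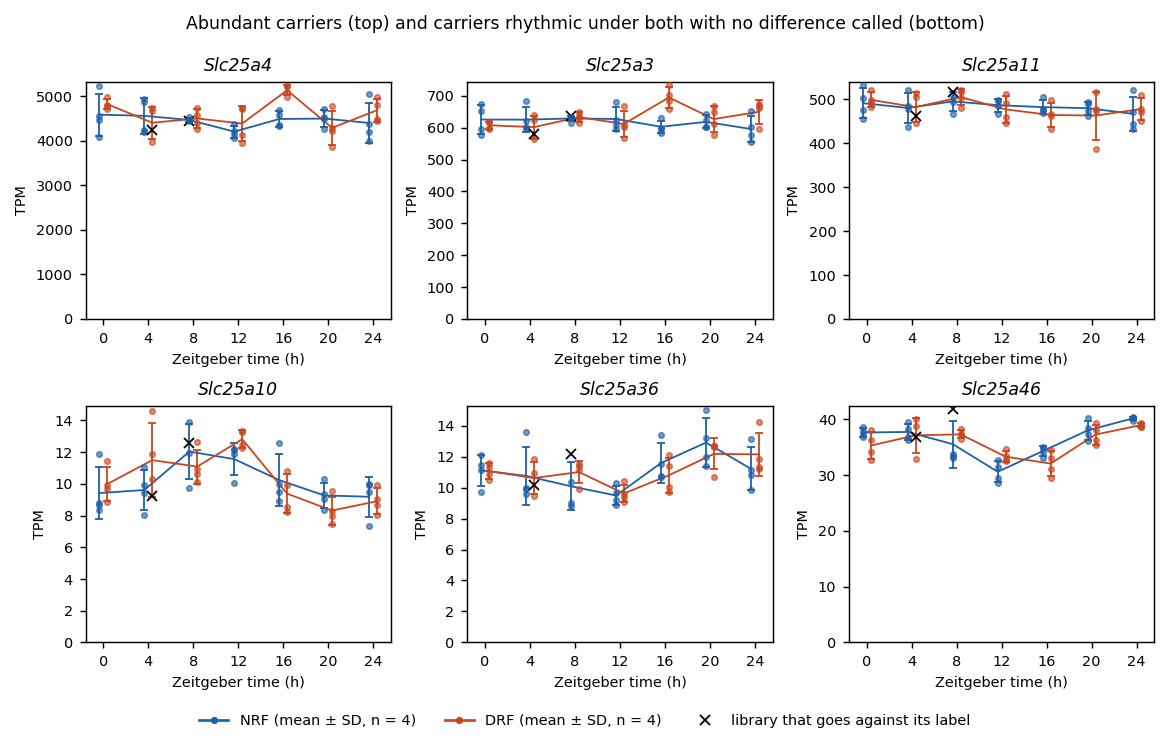
TPM against ZT (h) for Slc25a4, Slc25a3 and Slc25a11 (top) and for Slc25a10, Slc25a36 and Slc25a46 (bottom), in NRF (blue) and DRF (orange): dots are libraries, lines and bars are mean ± SD of 4, and crosses mark the 2 libraries that go against their labels. The top row is nearly flat, with Slc25a4 at DRF ZT16 (5134 TPM) the highest mean, and in the bottom row the fitted peaks of the regimens lie at most 2.25 h apart.

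Slc25a34 had the largest rhythm difference of the 37 carriers tested. Under DRF it was high around lights on: the 4 libraries held 276.4, 223.6, 248.8 and 255.3 TPM at ZT0 against 157.1, 115.3, 141.7 and 150.0 TPM under NRF. At ZT12 the order was turned, with 114.5, 126.2, 145.2 and 138.9 TPM under DRF and 214.8, 166.6, 212.6 and 186.1 TPM under NRF. The groups did not overlap at either time. The amplitude was 0.32 ± 0.05 with a peak at 9.96 ± 0.652 h under NRF (adjusted p = 7.96e-05) and 0.51 ± 0.04 with a peak at 22.8 ± 0.354 h under DRF (adjusted p = 4.97e-09), a fitted peak-to-trough fold of 1.57 and 2.04. The rhythms differed (adjusted p = 9.07e-13, and 2.1e-12 without the 2 libraries). The peak moved by -11.1 ± 0.742 h (SE), and the 12 h turn with a kept amplitude was still rejected (adjusted p = 0.0286). Slc25a34 was called at ZT0, ZT20 and ZT24, higher under DRF by log2 differences of 0.83, 0.81 and 0.84 (SE 0.13 each), and at ZT8 and ZT12, lower under DRF by -0.66 and -0.57. Its relative Slc25a35, far less abundant at 4.09 TPM, moved otherwise: the peak was at 16 h under NRF (amplitude 0.13 ± 0.04, adjusted p = 0.0393) and at 11.2 h under DRF (0.27 ± 0.03, adjusted p = 3.47e-06), and the rhythms differed (adjusted p = 0.000535). The NRF rhythm of Slc25a35 was not called with any one of replicates 1 to 4 left out (amplitudes 0.132, 0.135, 0.147 and 0.118), without ZT4 (0.091), ZT12 (0.139), ZT16 (0.113), ZT20 (0.147) or ZT24 (0.130), with a replicate block (0.130), with the adipocyte and erythroid marker levels as covariates (0.125) or with no filter on low genes (0.130). At ZT20 Slc25a35 held 3.16, 2.58, 3.33 and 2.84 TPM under DRF and 5.06, 4.10, 4.07 and 4.05 TPM under NRF, with no overlap. Of its exonic bases 31.3% are shared with Rangrf on the opposite strand, itself listed at 0.117 TPM, and whether the counting used strand is not given in the sources used here.

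**Figure D3:**
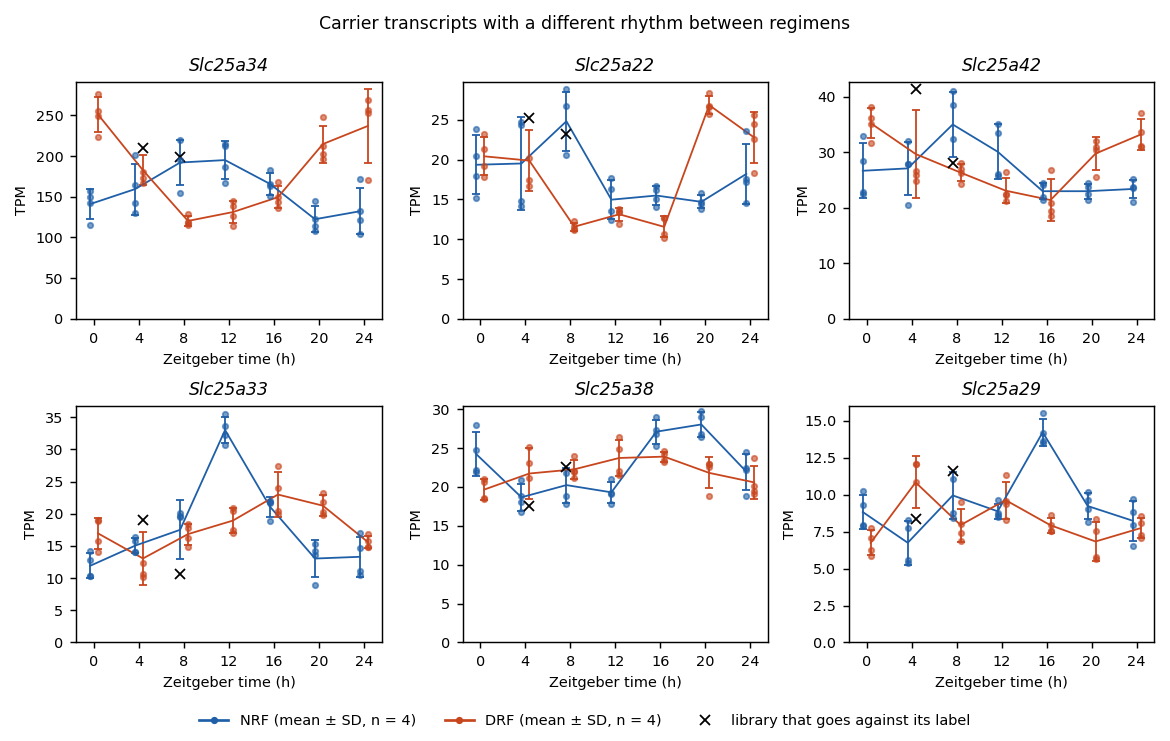
TPM against ZT (h) for the carriers with the largest amplitudes among those whose rhythm differed, in NRF (blue) and DRF (orange): dots are libraries, lines and bars are mean ± SD of 4, and crosses mark the 2 libraries that go against their labels. Slc25a34 and Slc25a22 are higher under DRF than under NRF at ZT20, and Slc25a33 has its highest mean at NRF ZT12 (33.0 TPM).

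Among carriers of nucleotides and cofactors, 8 of 9 were rhythmic under NRF and 6 under DRF, and the rhythm differed for 5 (37.3%, 32.4% and 27.7% of all genes). Slc25a33, a pyrimidine nucleotide carrier known to respond to insulin-like growth factor signalling, had the largest amplitude of the 37 carriers tested. Under NRF it rose to 30.7, 35.5, 33.6 and 32.2 TPM at ZT12, against 12.9, 10.3, 10.4 and 14.2 TPM at ZT0. Under DRF the ZT12 libraries held 17.5, 20.4, 17.0 and 20.9 TPM, all below those of NRF, and the highest mean was 22.98 ± 3.51 TPM (SD, n = 4) at ZT16. The amplitude was 0.56 ± 0.07 with a peak at 12.2 ± 0.57 h under NRF (adjusted p = 5.47e-06) and 0.36 ± 0.06 with a peak at 16.4 ± 0.545 h under DRF (adjusted p = 8.06e-05). The rhythms differed (adjusted p = 0.000185), and the later peak under DRF, by 4.24 ± 0.789 h, was far from a 12 h turn, which was rejected (adjusted p = 7.68e-09). Without the 2 libraries the difference had an adjusted p of 2.89e-07, and the library labelled NRF ZT8 replicate 1 held 10.7 TPM where the others of its group held 19.5, 20.2 and 19.7 TPM. Slc25a33 shares 14.9% of its exonic bases with the antisense gene Gm13068, listed at 0.144 TPM. Slc25a36, the other pyrimidine nucleotide carrier, was rhythmic in both regimens with peaks at 20.4 ± 1.02 h and 22.3 ± 1.27 h, and no difference was called (adjusted p = 0.524). Its NRF rhythm (amplitude 0.154) was not called without replicate 2 (0.123), replicate 3 (0.166), ZT12 (0.132) or ZT20 (0.118). Its DRF rhythm (0.105) was not called without replicate 1 (0.096), replicate 3 (0.092), replicate 4 (0.111), ZT12 (0.071), ZT16 (0.104), ZT20 (0.087) or ZT24 (0.092), nor with the same marker covariates (0.093), no filter (0.105), the mitochondrially encoded genes left out (0.122) or the deposited values (0.033).

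Slc25a42, which brings coenzyme A into the matrix, had its high hours close to those of Slc25a34. Its peak lay at 8.06 ± 0.734 h under NRF (amplitude 0.26 ± 0.05, adjusted p = 0.00124) and at 0.991 ± 0.652 h under DRF (0.30 ± 0.05, adjusted p = 6.93e-05), and the rhythms differed (adjusted p = 7.65e-06, and 2.21e-06 without the 2 libraries). The NRF rhythm was not called without ZT8 (amplitude 0.201). At ZT24 the DRF libraries held 37.1, 31.2, 30.9 and 33.6 TPM, all above the NRF libraries at 21.1, 25.2, 23.8 and 23.5 TPM. Slc25a16, a carrier linked to coenzyme A, had peaks at 7.26 ± 0.542 h and 3.47 ± 0.735 h, and the rhythms differed (adjusted p = 0.00393). Slc25a51, the mitochondrial NAD+ carrier, peaked at 18.2 ± 1.10 h under NRF and at 6.74 ± 0.734 h under DRF, with small amplitudes of 0.09 and 0.11 (difference adjusted p = 0.000177). At ZT16 its 4 DRF libraries (34.3, 35.4, 33.2 and 29.4 TPM) all lay below the 4 NRF libraries (41.9, 41.9, 39.6 and 40.8 TPM). Slc25a16 and Slc25a51 were named after their values were seen. Slc25a17 and Slc25a32 were called rhythmic under NRF only, and for neither was a difference between regimens called (adjusted p = 0.213 and 0.27).

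Among the amino acid carriers a rhythm was called for 6 of 9 under NRF and for 3 under DRF, and the rhythm differed for 6, where the shares of all genes were 37.3%, 32.4% and 27.7%. Slc25a22, a glutamate carrier, had the largest difference called at a single clock hour. At ZT20 it held 26.7, 25.7, 26.5 and 28.4 TPM under DRF and 14.5, 15.8, 14.6 and 13.9 TPM under NRF (log2 difference 0.83 ± 0.14, adjusted p = 0.000131). At ZT8 it held 11.3, 12.3, 11.6 and 11.1 TPM under DRF and 23.2, 26.7, 20.5 and 28.8 TPM under NRF (-1.03 ± 0.14, adjusted p = 5.73e-05). The groups did not overlap at either time, and without the 2 libraries the ZT8 difference was -1.055 (adjusted p = 0.000134). The amplitude was 0.29 ± 0.07 with a peak at 5.49 ± 0.871 h under NRF (adjusted p = 0.0101) and 0.51 ± 0.07 with a peak at 23.1 ± 0.548 h under DRF (adjusted p = 6.27e-06), and the rhythms differed (adjusted p = 2.41e-05). The NRF rhythm of Slc25a22 was not called without ZT8 (amplitude 0.188), without ZT20 (0.276), without replicate 3 (0.259) or without replicate 4 (0.228).

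Slc25a29, the carrier of ornithine, arginine and lysine, was high at ZT16 under NRF, at 15.5, 13.5, 14.2 and 13.6 TPM, against 8.61, 7.57, 7.57 and 7.98 TPM under DRF. At ZT4 it was the reverse, with 8.35, 10.8, 12.05 and 12.1 TPM under DRF and 8.265, 7.75, 5.37 and 5.61 TPM under NRF, with no overlap at either time. The peak was at 15.7 ± 0.749 h under NRF and at 8.16 ± 1.09 h under DRF (difference adjusted p = 0.00133, and 0.000507 without the 2 libraries), a call that was lost without ZT4 (size of the difference 0.24 against 0.438), without ZT16 (0.326) and without replicate 3 (0.365). Its NRF rhythm was not called without ZT16 (amplitude 0.164). Its DRF rhythm (amplitude 0.203, adjusted p = 0.0328) was not called with any one of replicates 1 to 4 left out (0.211, 0.203, 0.20 and 0.203), without ZT0 (0.182), ZT12 (0.18), ZT16 (0.221), ZT20 (0.181) or ZT24 (0.209), with the median of ratios (0.18), with no filter (0.203) or on the deposited values (0.073). Slc25a38, the glycine carrier of heme synthesis, peaked at 18.8 ± 0.489 h under NRF (amplitude 0.29 ± 0.04, adjusted p = 1.84e-05) and at 13.1 ± 1.15 h under DRF (0.12 ± 0.03, adjusted p = 0.0172), and the rhythms differed (adjusted p = 6.26e-05). Its DRF rhythm was not called without replicate 1 (0.109), replicate 2 (0.118), ZT0 (0.099) or ZT16 (0.105). At ZT20 it held 22.97, 18.8, 22.55 and 22.9 TPM under DRF, all below 29.05, 26.8, 29.8 and 26.5 TPM under NRF. Erythroid markers, the list nearest to this role, summed to between 1670 and 42600 TPM in the NRF libraries (median 7050) and between 1860 and 66700 TPM in the DRF libraries (median 7190), and none was at 0 in every library. Of the 5, limma called 0 as different between regimens in mean or rhythm, and 0 had an unadjusted p under 0.05. With the adipocyte and erythroid marker levels as covariates the rhythm difference of Slc25a38 was still called (adjusted p = 6.05e-05).

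Slc25a47, a carrier best known from liver, was rhythmic under NRF with an amplitude of 0.26 ± 0.06 and a peak at 18.8 ± 0.792 h (adjusted p = 0.00437). Under DRF its amplitude was 0.095 ± 0.042 (adjusted p = 0.181), and the rhythms differed (adjusted p = 0.0013, and 6.48e-05 without the 2 libraries). The NRF rhythm was not called without ZT4 (0.183), and the DRF rhythm was called without ZT8 (0.175). At ZT20 the 4 DRF libraries, at 4.08, 3.68, 3.98 and 4.36 TPM, all lay below the NRF libraries at 6.24, 6.10, 5.31 and 5.095 TPM. Slc25a13, the calcium-regulated aspartate-glutamate carrier citrin, was highest at NRF ZT12, at 84.2, 96.9, 98.5 and 99.5 TPM, where DRF held 85.96, 79.3, 75.0 and 87.7 TPM. These groups overlapped, and no single ZT was called for it. Its amplitude was 0.21 ± 0.03 with a peak at 11.2 ± 0.606 h under NRF (adjusted p = 1.51e-05) and 0.085 ± 0.043 under DRF (adjusted p = 0.267), and the rhythms differed (adjusted p = 0.00494, and 0.00417 without the 2 libraries). That call was lost without replicate 3 (0.182 against 0.203) and without replicate 4 (0.176). Slc25a44, a carrier linked to branched-chain amino acids and named after its values were seen, differed in rhythm (adjusted p = 0.00381) and was lower under DRF at ZT16 (log2 difference -0.27 ± 0.08, adjusted p = 0.0274). Slc25a12, the aspartate-glutamate carrier that predominates in heart and muscle, had amplitudes of 0.008 under NRF and 0.04 under DRF, and neither was called.

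The remaining carriers transport carboxylates, ATP-Mg, iron or glutathione, or are relatives of the uncoupling proteins. Slc25a10, the dicarboxylate carrier, was rhythmic in both regimens with peaks at 10.3 ± 0.998 h and 8.59 ± 0.729 h, and no difference was called (adjusted p = 0.434). Slc25a1, the citrate carrier that feeds fatty acid synthesis, was not called rhythmic (adjusted p = 0.138 and 0.206) and varied widely within groups: at DRF ZT16 its libraries held 13.9, 36.65, 11.8 and 15.5 TPM. The library with 36.65 TPM, DRF ZT16 replicate 2, also had the highest summed adipocyte markers of all, 211 TPM, against medians of 58.1 TPM under NRF and 51.8 TPM under DRF (lowest 13.9 and 5.53 TPM). Of the 5 adipocyte markers limma called 0 as different between regimens in mean or rhythm (1 and 0 at an unadjusted p under 0.05), and none was at 0 in every library. With the adipocyte and erythroid marker levels as covariates, Slc25a1 was called rhythmic under NRF (adjusted p = 0.00886) and not under DRF (0.301), and Slc25a10 was called under both (0.0155 and 0.00141). Among the ATP-Mg/phosphate carriers, which set the matrix adenine nucleotide pool in response to calcium, Slc25a23 alone of 3 was called rhythmic, under DRF (amplitude 0.17 ± 0.03, adjusted p = 0.000933, against 32.4% of all genes), and its difference between regimens (adjusted p = 0.0349) was not called without the 2 libraries (0.0531). Of the iron and glutathione carriers Slc25a28, Slc25a37, Slc25a39 and Slc25a40, Slc25a28 alone was called, as rhythmic under DRF (amplitude 0.10 ± 0.03, adjusted p = 0.018, against 32.4% of all genes), and Slc25a40 was called different in rhythm without the 2 libraries (adjusted p = 0.0494). Slc25a14 and Slc25a27, relatives of the uncoupling proteins, were low but differed in rhythm (adjusted p = 0.000646 and 0.00952), on a median of 91.5 and 166 reads per library. The call of Slc25a27 (size 0.314) was lost without replicate 3 (0.288), without ZT12 (0.322) and without ZT24 (0.296). The rhythm of Slc25a27 under NRF (amplitude 0.193) was called without replicate 1 or without ZT20 but not without any other replicate or ZT (0.171 to 0.229), with the same marker covariates (0.178) or with no filter (0.193). At ZT0 Slc25a14 held 2.62, 2.85, 3.63 and 2.48 TPM under DRF and 1.655, 2.195, 1.52 and 1.65 TPM under NRF, with no overlap (log2 difference 0.50 ± 0.11, adjusted p = 0.00174). Slc25a46 had peaks at 0.257 ± 0.686 h and 2.51 ± 1.04 h, and its rhythm was called different without the 2 libraries (adjusted p = 0.0204) though not with them (0.146). Its DRF rhythm (amplitude 0.098) was not called without replicate 1 (0.10), replicate 3 (0.092), replicate 4 (0.082), ZT12 (0.092), ZT16 (0.065) or ZT24 (0.085), nor with the median of ratios (0.059), the mitochondrially encoded genes left out (0.092) or the deposited values (0.018).

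The 14 carriers rhythmic under both regimens can be set out by how far their fitted peak moved. A shift of up to 4 h is called locked here and one of 8 h or more inverted. There were 4 locked carriers (Slc25a10, Slc25a16, Slc25a36 and Slc25a46, with shifts of -1.74, -3.79, 1.94 and 2.25 h), 6 intermediate ones and 4 inverted ones (among them Slc25a14, Slc25a34 and Slc25a51, with shifts of 9.75, -11.1 and -11.5 h). The median absolute shift was 6.09 h, and among all 2457 genes rhythmic under both it was 3.82 h, with 1278 locked, 744 intermediate and 435 inverted. Without replicate 2 the carriers' median was 3.74 h. Of the intermediate carriers, Slc25a33 peaked later under DRF by 4.24 h, while the shifts of Slc25a22, Slc25a29, Slc25a35, Slc25a38 and Slc25a42 were -6.42, -7.49, -4.76, -5.76 and -7.07 h. Without the 2 libraries 13 carriers were rhythmic under both, with 4 locked, 6 intermediate and 3 inverted and a median of 6.45 h. All-gene values without the 2 libraries or without replicate 2 are not given here, and the 3.82 h belongs to the fit of all libraries. Slc25a16 (SE of the shift 0.913 h), Slc25a33 (0.789 h), Slc25a35 (1.26 h), Slc25a42 (0.982 h) and Slc25a29 (1.32 h) lie within 1 SE of a class limit. The classes of Slc25a22, Slc25a29, Slc25a35, Slc25a36, Slc25a38 and Slc25a46 also rest on a rhythm whose call was lost when some replicates were left out, as given above. The inverted class of Slc25a14 rests on a DRF rhythm near the limit (limma, adjusted p = 0.044, and 0.0546 without the 2 libraries). That of Slc25a51 rests on an NRF rhythm near the limit (limma, adjusted p = 0.0459, and 0.0116 without the 2 libraries). Class and test are separate: Slc25a16 was locked by its shift and differed in rhythm by the test.

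**Figure D4:**
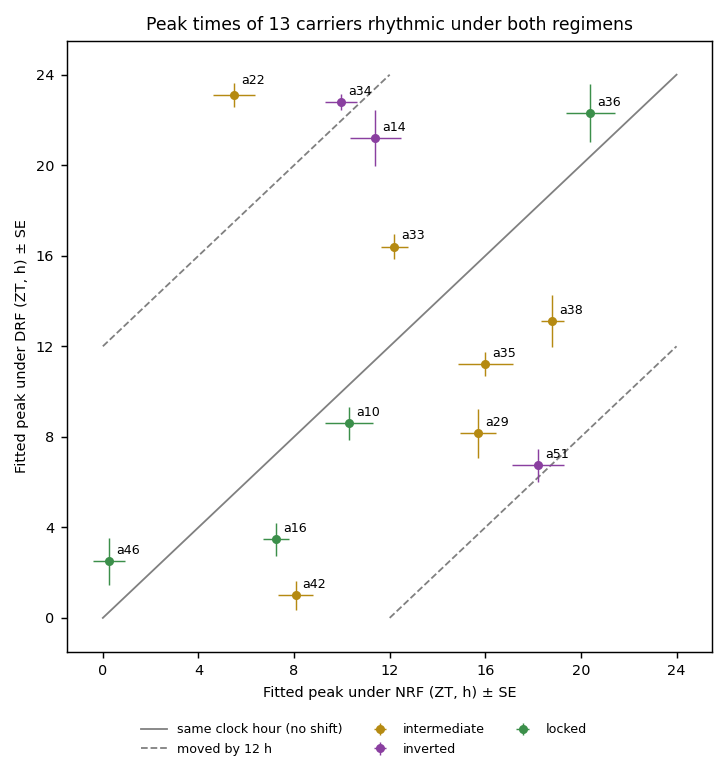
Fitted peak time under DRF against that under NRF (ZT, h; bars are SE) for 13 of the 14 carriers rhythmic under both regimens, coloured by class, with the line of no shift (solid) and of a 12 h turn (dashed). Slc25a34 and Slc25a51 lie nearest the dashed lines and Slc25a10, Slc25a36 and Slc25a46 nearest the solid one.

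Daily means of the 7 ZTs differed between regimens for 10 carriers at an adjusted p under 0.05 (limma), against 29.0% of all genes. ZT0 and ZT24 are the same hour of the light cycle and both enter this mean with full weight. It therefore leans toward lights on and is not an even mean over the day. Slc25a34 and Slc25a16 were higher under DRF (2 carriers, against 2.88% of genes called higher), and Slc25a24, Slc25a25, Slc25a26, Slc25a29, Slc25a30, Slc25a35, Slc25a45 and Slc25a51 were lower (8, against 26.1% called lower). The median log2 difference was -0.019 for the carriers and -0.047 for all genes. This split depends on the scaling: with libraries scaled by the median of ratios, which put the median of all genes at 0.002, 10 carriers were called higher and 2 lower, and 1254 genes were higher and 1559 lower. With the mitochondrially encoded genes left out of the TPM sum the split was 7 higher and 3 lower, and 705 genes were higher and 1658 lower. On the deposited values it was 5 higher and 3 lower, and 711 genes were higher and 2007 lower. Without the 2 libraries it was 1 higher and 8 lower, with Slc25a16 lost (adjusted p = 0.0655), against 31.5% of all genes. The 10 carriers became 3 without replicate 1 (19.1% of all genes), 4 without replicate 3 (14.5%), 4 without ZT0 (19.3%), 17 without ZT12 (31.1%), 6 without ZT16 (19.7%), 4 without ZT20 (17.9%) and 5 without ZT24 (23.5%).

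The largest of these differences were small. Slc25a25, an ATP-Mg/phosphate carrier, was lower under DRF by a log2 difference of -0.20 ± 0.06 (adjusted p = 0.0111). At ZT16 it held 2.67, 3.06, 3.63 and 3.06 TPM under DRF and 4.234, 4.336, 4.293 and 4.59 TPM under NRF, with no overlap, but the difference was not called at that ZT (adjusted p = 0.123). Its mean difference was not called without replicate 1 (-0.165), replicate 3 (-0.183), ZT8 (-0.166) or ZT16 (-0.169). Slc25a34 was higher by 0.19 ± 0.05 (adjusted p = 0.00444), which was not called without ZT0 (0.080), without ZT20 (0.084) or without ZT24 (0.079), the hours at which it was called higher under DRF. Slc25a45, placed here with the amino acid carriers, was lower by -0.168 ± 0.045 (adjusted p = 0.00479). Slc25a29 was lower by -0.165 ± 0.046 (adjusted p = 0.00677), a call lost without ZT0 (-0.135), ZT16 (-0.064), ZT20 (-0.126), replicate 1 (-0.084) or replicate 2 (-0.143). Slc25a24 was lower by -0.13 ± 0.05 (adjusted p = 0.0344) and Slc25a30, an uncoupling-protein relative, by -0.12 ± 0.03 (adjusted p = 0.00447). With the median of ratios the differences of Slc25a29, Slc25a24 and Slc25a30 were -0.114, -0.076 and -0.073 and were not called, and with the mitochondrially encoded genes left out those of Slc25a24 and Slc25a30 were -0.092 and -0.090, not called. On the deposited values those of Slc25a29 and Slc25a24 were -0.051 and -0.033, not called, and with no filter that of Slc25a24 was -0.127, not called. Slc25a24 also lost its call without ZT0 (-0.130), ZT16 (-0.107), ZT20 (-0.106), ZT24 (-0.129) or any of replicates 1, 2 and 3 (-0.134, -0.141 and -0.107). All 6 were called without the 2 libraries, with adjusted p from 0.00297 to 0.0161.

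Cell type markers were read by the same tests. Of 5 markers each, 4 of endothelium, 3 of smooth muscle and pericytes, 3 of macrophages, 2 of fibroblasts and 2 of cardiomyocytes differed in daily mean, against 29.0% of all genes. With the median of ratios these counts were 3, 3, 2, 2 and 2, with the mitochondrially encoded genes left out 3, 2, 2, 2 and 2, and on the deposited values 3, 3, 2, 2 and 1. Limma called 0 of 4 atrial markers (4 at an unadjusted p under 0.05) and 0 of 2 tested lymphocyte markers (1). In rhythm, 2 endothelial, 2 cardiomyocyte and 1 fibroblast marker differed between regimens, against 27.7% of all genes. The summed endothelial markers ranged from 441 to 752 TPM (median 537) under NRF and from 373 to 640 TPM (median 472) under DRF. Smooth muscle and pericyte markers had medians of 711 and 632 TPM (ranges 620 to 1010 and 549 to 787), fibroblast markers of 606 and 568 TPM (476 to 763 and 444 to 736) and macrophage markers of 108 and 97.4 TPM (63.3 to 150 and 67.6 to 129). Cardiomyocyte markers, which define the labelled tissue, had medians of 19300 and 18100 TPM (17300 to 25100 and 14100 to 20300), and atrial markers of 604 and 1780 TPM (128 to 4260 and 94.2 to 5430). No marker of these lists was at 0 in every library, and the part of these lists in the carriers' mean levels was not tested. With the adipocyte and erythroid marker levels as covariates, 11 carriers differed in daily mean, against 10 without. The share of all genes in the covariate fit is not given here, and the 29.0% belongs to the fit without covariates.

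**Figure D5:**
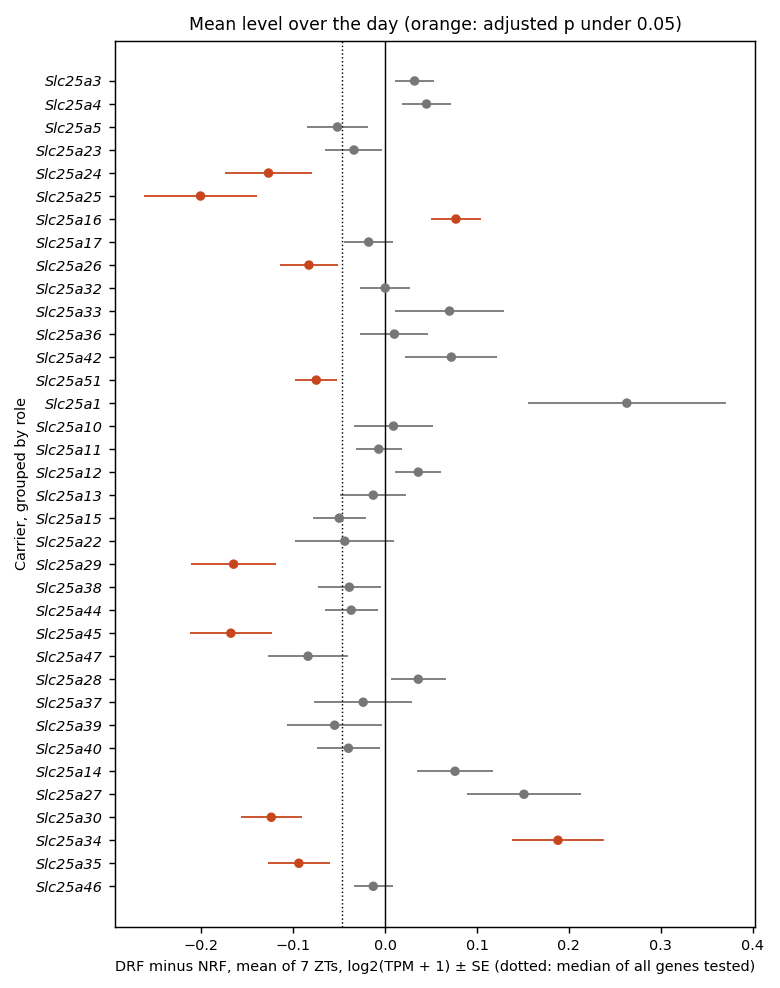
Difference in the daily mean, DRF minus NRF, in log2(TPM + 1) for 36 of the 37 carriers, grouped by role; dots are estimates, bars are SE, orange marks an adjusted p under 0.05, and the dotted line is the median of all genes tested (-0.047). Slc25a34 and Slc25a16 are the 2 orange dots to the right of 0, and 8 lie to the left, on a scale that runs from -0.20 for Slc25a25 to 0.26 for Slc25a1, which was not called.

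Clock hour by clock hour, 15 of 37 carriers differed between regimens at an adjusted p under 0.05 at 1 or more ZTs, against 32.9% of all genes. ZT20 had the most, 10 (against 14.8% of all genes called there), and ZT0 had 6 (11.3%). Fewer were called in the middle of the day, 2 at ZT4 (0.447%) and 2 at ZT8 (0.389%). The remaining times had 4 each: ZT12 (7.74%), ZT16 (6.94%) and ZT24 (8.89%). At ZT20 Slc25a16, Slc25a22, Slc25a33 and Slc25a34 were higher under DRF, and the lower ones included Slc25a29, Slc25a35, Slc25a38, Slc25a47 and Slc25a51. At ZT4 Slc25a29 and Slc25a47 were higher, and at ZT8 Slc25a22 and Slc25a34 lower. The ZT4 calls come from adjoining genes of chromosome 12. Slc25a29 lies on the minus strand up to base 108835883, and Slc25a47 on the plus strand from base 108836046. Some carriers were ordered one way at some called ZT and the other way at another, as Slc25a34 was at ZT0 and ZT12. The share of all genes with both orders was not computed. Without the 2 libraries, 1 of which was labelled ZT4 and the other ZT8, the counts from ZT0 to ZT24 were 8 (12.5% of all genes), 3 (3.45%), 4 (3.61%), 5 (9.51%), 5 (8.15%), 12 (16.6%) and 5 (10.6%).

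Several of these counts changed when a single library was left out. The shares of all genes in these fits are not given here, so whether the carriers moved with all genes cannot be told. At ZT0 the 6 carriers became 3 without DRF replicate 1, 3 without DRF replicate 4, 2 without NRF replicate 1 and 3 without NRF replicate 3. At ZT4 the 2 became 1 without DRF replicate 2, 3 or 4 and without NRF replicate 3 or 4. At ZT8 the 2 became 1 without DRF replicate 3 or NRF replicate 4, and 4 without NRF replicate 1. At ZT16 the 4 became 7 without DRF replicate 1, and 2 without DRF replicate 4 or NRF replicate 4. At ZT24 the 4 became 1 without DRF replicate 1, and 2 without NRF replicate 2, 3 or 4.

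To set the hours from feeding side by side in place of the hours from light, the same libraries were compared, treating the regimens as 12 h apart, since the clock hours of food access are not given in the sources used here. With DRF at ZT0 set against NRF at ZT12, 2 carriers differed (6.26% of all genes). With DRF ZT4 against NRF ZT16 there were 4 (6.47%), with DRF ZT8 against NRF ZT20 2 (5.56%), with DRF ZT12 against NRF ZT24 3 (5.18%), with DRF ZT16 against NRF ZT4 8 (22.9%) and with DRF ZT20 against NRF ZT8 8 (24.1%). In all, 16 of 37 carriers were called at 1 or more of the 6 pairs, against 44.3% of all genes, and 7 of 37 were called in none of the 18 tests of rhythm, mean, clock hour and food-matched hour, against 26.2%. When the 2 libraries were left out the counts in the same order were 4 (7.42% of all genes), 3 (6.46%), 3 (7.07%), 4 (6.11%), 9 (24.7%) and 10 (30.2%).

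Slc25a33 differed at 3 of these pairs, lower under DRF at ZT0 against NRF ZT12 (log2 difference -0.93 ± 0.16, adjusted p = 6.57e-05) and at ZT4 against NRF ZT16 (-0.69 ± 0.16, adjusted p = 0.00317), and higher at ZT16 against NRF ZT4 (0.57 ± 0.16, adjusted p = 0.00676). Slc25a34, whose peak shift was -11.1 h, was called by limma at 0 of the 6 pairs (1 at an unadjusted p under 0.05) and at 5 of the 7 clock hours. Slc25a46 was called at DRF ZT0, ZT12 and ZT16 against its food-matched NRF hour (0.20 ± 0.06, -0.26 ± 0.06 and -0.23 ± 0.06) and at 0 clock hours (1 at an unadjusted p under 0.05, limma). Slc25a10 was called at DRF ZT12 (0.45 ± 0.12, adjusted p = 0.0125) and ZT20 (-0.48 ± 0.12, adjusted p = 0.00229) and at 0 clock hours by either p (limma). Slc25a1 was called at DRF ZT12 against NRF ZT24 alone, with 28.7, 34.9, 24.7 and 17.9 TPM against 9.34, 13.3, 13.5 and 15.9 TPM (0.96 ± 0.29, adjusted p = 0.0375). The summed adipocyte markers moved with this difference, at 96.5, 163, 108 and 71.7 TPM against 14.4, 60.1, 53.7 and 61.5 TPM, with no overlap. With the adipocyte and erythroid marker levels as covariates the difference of Slc25a1 was 0.385 and was not called (adjusted p = 0.209). For Slc25a10 in the same pair it was then 0.315 and not called (adjusted p = 0.0939), while its difference at DRF ZT20 was -0.378 and still called (adjusted p = 0.00841). Slc25a22 was lower at DRF ZT16 than at NRF ZT4 (-0.67 ± 0.14, adjusted p = 0.000579), where 2 of its 4 NRF libraries, at 14.8 and 14.2 TPM, lay near the DRF libraries (10.2 to 12.7 TPM) and the others at 24.7 and 24.3 TPM. The clock-hour and food-matched comparisons share their libraries, so they are not independent of each other.

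Transcripts of proteins that work beside the carriers were read from lists of related genes. Of 6 further transcripts of the same family (Slc25a20, Ucp1, Ucp2, Ucp3, Mtch1 and Mtch2), the rhythm differed for 2, Ucp2 and Ucp3. Ucp3, the uncoupling protein of muscle, had an amplitude of 1.06 ± 0.16 with a peak at 6.23 h under NRF and of 1.07 ± 0.19 with a peak at 21.8 h under DRF (difference adjusted p = 8.32e-07), larger than that of any of the 37 carriers. Slc25a20 did not pass the test of a difference (adjusted p = 0.0582, and 0.0275 without the 2 libraries). Of 9 tested among the pyruvate carrier, sideroflexins and porins, Mpc2, a subunit of the pyruvate carrier, was called (adjusted p = 0.0243). For the route by which carriers are imported into the inner membrane, 10 of 12 transcripts differed in rhythm. They were Timm22, Timm29, Agk, Timm9, Timm10, Timm8a1, Tomm70a, Tomm20, Tomm22 and Tomm40 (9 without the 2 libraries, with Tomm20 lost). Timm9, a chaperone of the space between the membranes, peaked at 21.5 h under NRF and 7.93 h under DRF (amplitudes 0.18 ± 0.04 and 0.19 ± 0.03, difference adjusted p = 1.51e-06). The share of all genes with a different rhythm was 27.7%.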

How the data were processed

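PolyA RNA was sequenced as paired reads on a NovaSeq in 56 heart libraries. The submitters' processing notes name HISAT2 2.0.5, featureCounts 1.5.0-p3 and mm10; annotation, strand setting and whether reads or pairs were counted are not given in the sources used here. The values the authors deposited, named TPM, are of another unit: each equals a library constant times log2(1 + scaled reads) divided by exon length, which compresses abundant genes. Whole reads were recovered from their steps (99.9998% of values under 200000 reads within 0.1 of a whole read), with GENCODE M21 exon lengths for 22019 genes and searched lengths for 835, Slc25a28, Slc25a45 and Slc25a46 among them, so the levels of these 3 are less certain than their differences. Linear TPM was then computed, although the design had assumed deposited TPM, and 0 columns lacked a sample. Genes averaging 1 TPM or more were tested on log2(TPM + 1) with limma 3.58.1 in R 4.3.3: a 24 h cosine per regimen, regimen differences in rhythm, 7-ZT mean, each ZT and each food-matched pair, adjusted by Benjamini-Hochberg over 13869 genes. Fold changes on this scale understate those of low genes. The recovery and the fits were tested on simulated data. Members, gene lists and tests were chosen with earlier results of these data known. Carriers were named by rule as the 5 most abundant, the 10 of largest amplitude with a different rhythm, those rhythmic in both with none called different, the 6 largest mean differences, those called at 3 or more ZTs and those nearest the filter. Slc25a1, Slc25a16, Slc25a23, Slc25a28, Slc25a44 and Slc25a51, and carriers listed with a count, were named after their values were seen. Alternatives were other filters, pseudocounts, scalings, thresholds, marker covariates, a replicate block, the deposited values and left-out replicates, ZTs or libraries. Replicate numbers carry no stated pairing: over 364 same-number pairs the median correlation of deviations was 0.0125 (-0.397 to 0.571), against -0.00064 for other pairs. Results for 1 carrier are not reported here, though it is included in the counts.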

Additional observations from a re-analysis of the deposited data

Results flagged for a closer look

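In 30 of 504 groups of 4 libraries, over 36 carriers, 1 library lay apart from the other three by Dixon's criterion, and chance alone meets it in about 1 in 20 groups, or 25.2 of them. In NRF they were Slc25a10 at ZT0 replicate 3 (11.9 TPM) and ZT12 replicate 4 (10 TPM), Slc25a13 at ZT12 replicate 1 (84.2 TPM), Slc25a15 at ZT16 replicate 1 (5.77 TPM), Slc25a17 at ZT0 replicate 4 (14.4 TPM), Slc25a28 at ZT0 replicate 2 (35.2 TPM), Slc25a30 at ZT4 replicate 4 (10.5 TPM), Slc25a35 at ZT20 replicate 1 (5.06 TPM), Slc25a36 at ZT4 replicate 4 (13.6 TPM), Slc25a37 at ZT20 replicate 3 (10.2 TPM) and Slc25a45 at ZT8 replicate 4 (9.56 TPM). Slc25a25 had 3 such NRF libraries, ZT0 replicate 2 (3.55 TPM), ZT4 replicate 4 (5.54 TPM) and ZT8 replicate 4 (5.79 TPM), and Slc25a33 had 2, ZT8 replicate 1 (10.7 TPM) and ZT16 replicate 4 (18.8 TPM). Slc25a46 had 1, ZT8 replicate 1 (41.8 TPM).

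In DRF they were Slc25a1 at ZT16 replicate 2 (36.7 TPM) and ZT20 replicate 2 (18.4 TPM), Slc25a3 at ZT24 replicate 2 (595 TPM), Slc25a24 at ZT24 replicate 4 (11.2 TPM), Slc25a28 at ZT4 replicate 2 (35.9 TPM), Slc25a30 at ZT24 replicate 3 (6.17 TPM), Slc25a32 at ZT12 replicate 4 (8.22 TPM), Slc25a34 at ZT24 replicate 3 (170 TPM), Slc25a36 at ZT20 replicate 2 (10.7 TPM), Slc25a38 at ZT20 replicate 2 (18.8 TPM), Slc25a39 at ZT4 replicate 2 (175 TPM), Slc25a40 at ZT0 replicate 2 (1.90 TPM) and Slc25a42 at ZT4 replicate 1 (41.5 TPM). The libraries that went against their labels gave 3 of the 30, those of Slc25a33 and Slc25a46 at NRF ZT8 replicate 1 and that of Slc25a42.

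The rhythm differed between the regimens for 17 of 37 carriers, against 27.7% of all genes, by the test of the difference itself, whose size is the log2 length of the difference between the fitted cosines. Among them the sizes were 0.832 for Slc25a34, 0.611 for Slc25a22, 0.512 for Slc25a33, 0.455 for Slc25a42, 0.438 for Slc25a29, 0.348 for Slc25a47, 0.314 for Slc25a27, 0.303 for Slc25a38, 0.296 for Slc25a14, 0.262 for Slc25a35, 0.205 for Slc25a51, 0.203 for Slc25a13, 0.201 for Slc25a5, 0.177 for Slc25a44, 0.167 for Slc25a16 and 0.163 for Slc25a23.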

How the results depend on the processing

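Of the alternatives to the results on named carriers, 798 kept direction and call, 115 lost the call, 1 gained it and 0 were reversed. Counts of carriers moved by more than 1.5 times as follows, and the cause was not tested. The shares of all genes move with the setting too. Without ZT16, 18.6% of all genes were rhythmic under DRF, against 32.4% with it, and 19.7% differed in the mean, against 29.0%. Most of the counts in this section have no such share beside them, so they do not show a change particular to the carriers. A test for any shape of time course called 13 under NRF. An adjusted p under 0.01 called 10 under DRF, 4 in the mean, 2, 1, 1, 2, 6 and 1 at ZT0, ZT4, ZT8, ZT16, ZT20 and ZT24, and 9 at food-matched hours. Leaving out ZT16 gave 9 rhythmic under DRF, 9 rejecting the 12 h turn and 6 in the mean. For the mean, leaving out ZT0, ZT12, ZT20 or ZT24 gave 4, 17, 4 and 5. At ZT4 a minimum of 5 TPM gave 1, no filter 1 and the median of ratios 4, and the median of ratios gave 7 at ZT12. The deposited values gave 2 at ZT16, no filter 2 at ZT24, and leaving out the 2 libraries against their labels 4 at ZT8. With a replicate number or library left out, the counts ranged from 12 to 21 under NRF, 10 to 17 under DRF, 12 to 20 for the rhythm difference, 12 to 14 for the 12 h turn, 3 to 11 for the mean, 2 to 9, 0 to 2, 1 to 4, 2 to 5, 2 to 7, 4 to 10 and 1 to 5 at ZT0 to ZT24, and 10 to 19 at food-matched hours, and the median shift from 3.74 to 6.05 h. The lowest counts came without replicate 3 under NRF (12), without replicate 1 under DRF (10) and in the mean (3), and without replicate 2 for the shift (3.74 h). The replicate numbers do not pair the samples; with a replicate block the calls were 18 under NRF, 16 under DRF, 17 for the rhythm difference, 11 for the mean and 1 at ZT4. Depth limits Slc25a14 and Slc25a27 most, and intervals from reads cover counting error only.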
